A study of Mus musculus with 6 samples.

Results

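Hypoxia response and glycolysis genes were followed in whole mouse adrenal glands as 34 genes listed by symbol, out of 54532 genes in the count table. No measured value enters the rule, but the list was drawn up with earlier results of these data known. They comprise 3 subunits of the hypoxia-inducible factors (HIF), 4 regulators of oxygen sensing, 10 HIF target genes outside glycolysis, 3 genes of glucose and lactate transport and pyruvate entry, and 14 glycolytic enzymes. The symbols matched 35 identifiers, because Aldoa has a second, neighbouring gene model. RNA was sequenced from 3 adrenal samples labelled WT and 3 labelled VEGF/LysM, and the series addresses the effect of macrophage-derived VEGF-A on the intact organ. LysM is an older name of Lyz2, whose promoter is widely used to drive Cre recombinase in myeloid cells, neutrophils included. The labels give the tissue and the group name and do not describe the allele, the control genotype, the age, the sex or whether replicates are separate animals. The spread behind every p is that of these samples alone and may be technical. For these genes the question was whether the VEGF/LysM gland carries a hypoxic transcript pattern.

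Library totals ran from 16476879 to 18671950 counts. All 10 cortex markers and all 10 chromaffin cell markers had counts in every library. WT replicate 3 stood apart: 15 hepatocyte markers summed to 70440 counts scaled to a common library total (CPM), against 231 and 351 CPM in WT replicates 1 and 2. VEGF/LysM replicate 3 held 981 CPM of the same markers, against 140 and 252 CPM in replicates 1 and 2 of that group. Between 0 and 8 of these 15 markers were at 0 counts in a library. Cyp2e1 alone made up most of the sum outside WT replicate 3, and the other 14 markers summed to 66570 CPM in WT replicate 3, 292 CPM in VEGF/LysM replicate 3 and 6.53 to 12.4 CPM in the remaining 4. Both libraries also held more kidney tubule transcripts than the others of their group (35.3 and 4.98 CPM over 10 markers, against at most 2.52 CPM). Liver is a glycolytic and gluconeogenic tissue with enzyme forms of its own, so results are given with and without these 2 libraries. In whole-gland RNA, fewer cells of a type and less RNA per cell cannot be told apart.

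Cells adapt to low oxygen through HIF, a pair of transcription factor subunits. Prolyl hydroxylases (Egln1, Egln2, Egln3) use oxygen to mark the alpha subunits Hif1a and Epas1, the von Hippel-Lindau protein Vhl then directs them to degradation, and in hypoxia they persist, pair with Arnt and switch on target genes. As this control acts on protein, the transcript level of Hif1a is a poor gauge of HIF activity, and the targets are the usual transcript readout. Many targets encode glycolytic enzymes and glucose transporters, which let cells make ATP without oxygen. The adrenal is densely supplied by fenestrated capillaries, and Epas1 is strongly expressed in endothelium and in chromaffin cells.

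HIF binds a short core, ACGTG or GCGTG, in the control regions of its targets. To show what that core looks like in these genes, the 250 bases before the transcription start are printed for 4 members whose values are described below: Bnip3 and Slc2a1, whose groups did not overlap, and Pgk1 and Ldha, glycolytic enzymes. The sequences are from RefSeq on GRCm38.p6, 5′ to 3′ on the gene's strand, with each ACGTG or GCGTG core on either strand in capitals.
Bnip3, chr7:138909507-138909756, minus strand: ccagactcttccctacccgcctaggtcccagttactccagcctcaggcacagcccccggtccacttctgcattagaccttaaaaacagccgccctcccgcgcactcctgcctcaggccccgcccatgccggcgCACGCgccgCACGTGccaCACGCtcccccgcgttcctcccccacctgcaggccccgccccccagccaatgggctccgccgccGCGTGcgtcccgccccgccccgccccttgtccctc
Slc2a1, chr4:119108495-119108744, plus strand: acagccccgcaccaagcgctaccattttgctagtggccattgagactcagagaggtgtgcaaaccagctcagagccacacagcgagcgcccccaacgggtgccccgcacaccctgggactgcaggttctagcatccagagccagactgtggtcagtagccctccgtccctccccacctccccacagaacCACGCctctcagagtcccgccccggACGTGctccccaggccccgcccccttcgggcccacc
Pgk1, chrX:106186850-106187099, plus strand: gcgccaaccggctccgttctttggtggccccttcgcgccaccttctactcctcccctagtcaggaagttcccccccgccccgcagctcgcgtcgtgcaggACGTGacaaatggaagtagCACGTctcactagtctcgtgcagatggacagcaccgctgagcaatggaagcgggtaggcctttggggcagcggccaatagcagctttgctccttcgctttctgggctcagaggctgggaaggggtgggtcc
Ldha, chr7:46845554-46845803, plus strand: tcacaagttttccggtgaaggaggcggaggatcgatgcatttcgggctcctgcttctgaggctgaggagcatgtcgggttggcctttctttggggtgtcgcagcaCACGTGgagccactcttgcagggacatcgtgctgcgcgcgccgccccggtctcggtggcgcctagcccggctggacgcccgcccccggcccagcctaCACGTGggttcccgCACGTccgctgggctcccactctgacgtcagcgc
The Ldha window, the one of its 2 annotated starts with more cores, held 5 ACGTG matches, of which 2 pairs come from CACGTG read on both strands; CACGTG is also the E-box that Myc and the clock factors bind. Bnip3 held 2 ACGTG matches, both from 1 CACGTG, and 3 GCGTG matches, Pgk1 2 ACGTG matches, and Slc2a1 1 of each. Promoter windows were found for 31 of the 34 genes, and 19 of these genes (61.3%) had ACGTG in at least 1 window, against 18.5% of 27025 genes with a window. For either core the shares of genes were 90.3% and 41.5%. Member windows were richer in CG pairs (median 18.5 against 6), and among windows with at least 15 CG pairs ACGTG stood in 64% of member windows and 25.1% of all, and either core in 88% and 67.9%, a narrower gap. A match is a description of the letters and not a bound site, and HIF also acts from sites outside these windows.

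No hypoxia or glycolysis gene differed detectably between VEGF/LysM and WT, and a hypoxic pattern, with targets and glycolytic enzymes higher together, was not detected. Of the 35 identifiers, 34 passed the filter on low counts and were tested. With Benjamini-Hochberg adjustment across the 16300 genes that were tested, edgeR's quasi-likelihood test called 0 of them, where the background of calls is also 0% (smallest adjusted p among members 0.999). At an unadjusted p under 0.05 it found 0 members, against 2.82% of all genes (0.871% higher and 1.94% lower in VEGF/LysM). DESeq2 and limma-voom with sample weights also called 0 members. The log2 fold change, VEGF/LysM minus WT, was below 0 in 25 of the 34 and above 0 in 9, with a median of -0.14, against 49.7% below 0 and a median of 0.0013 over all genes tested. Without WT replicate 3 the split was 19 below (48.5% of all genes) and 15 above with a median of -0.033. In that fit 0 members passed at the adjusted threshold (0.006% of all genes, or 1 gene) or at an unadjusted p under 0.05 (2.09%). Without both libraries with liver transcripts the split was 16 below and 18 above with a median of 0.012. With library totals in place of TMM scaling, which corrects for differences in RNA makeup, the split was 19 below and 15 above, but that scaling also raised the median of all genes to 0.07, and the members' median was -0.05. The 95% interval lay within 1 log2 unit of 0 in 28 of 34 members (62.9% of all genes tested). It stayed under a 2-fold rise in 32 of 34 members (80.6% of all genes tested) and under a 1.5-fold rise in 27 of 34 (53.1%).

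**Figure D1:**
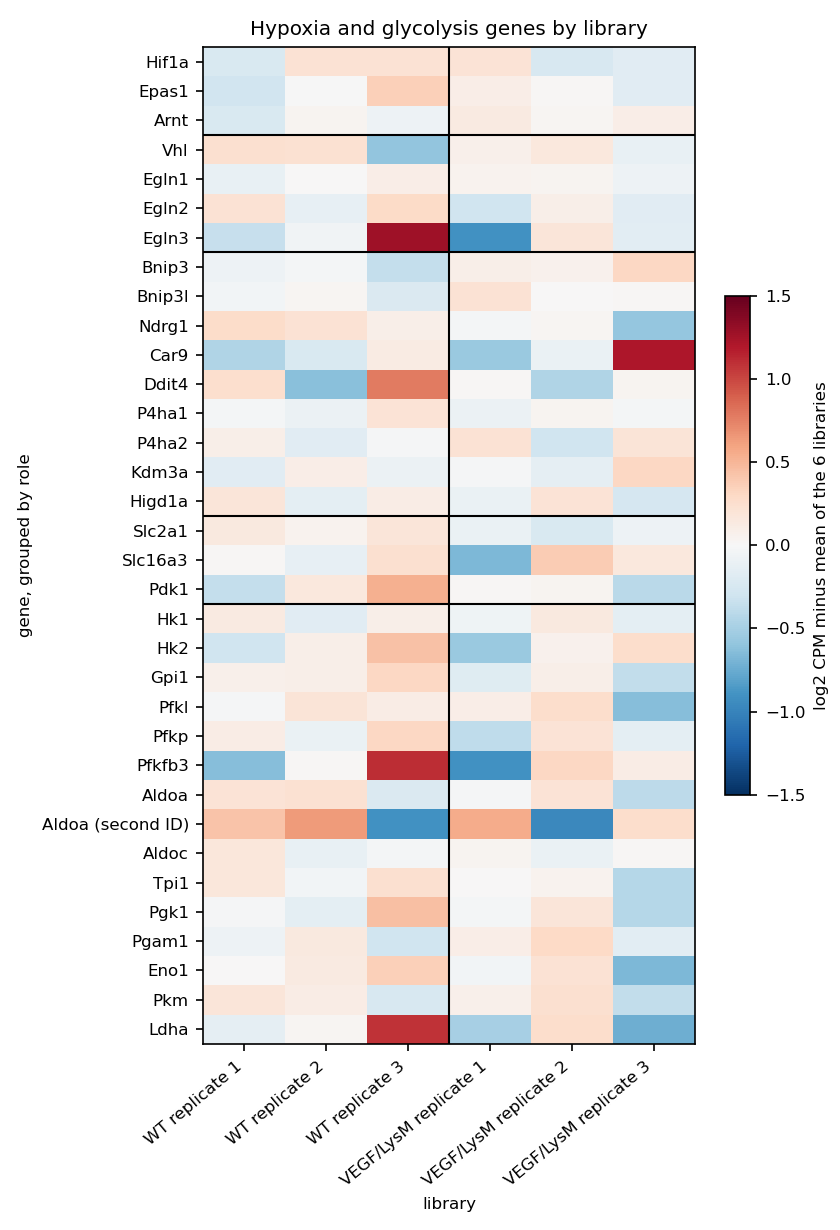
Heat map of the 34 tested identifiers (rows, grouped by role with lines between the role groups) in the 6 libraries (columns), coloured by log2 CPM minus the mean of the 6 libraries. WT replicate 3 is the highest of the 6 libraries in 17 of 34 rows, and VEGF/LysM replicate 3 the lowest in 11, mostly among the glycolytic enzymes.

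Among the HIF subunits the groups overlapped for each gene. Hif1a (chromosome 12, 73901375 to 73947530, plus strand, GRCm38), the alpha subunit found in most cells, stood at 47.8, 64.7 and 65.1 CPM in WT replicates 1 to 3 and at 64.2, 47.3 and 49.6 CPM across VEGF/LysM (TMM-scaled, as are all CPM below unless said otherwise). Each group thus held high and low libraries, and the log2 fold change was -0.14 ± 0.19 (SE), with a 95% interval of -0.59 to 0.30. Epas1 (chromosome 17, 86753700 to 86833410, plus strand), which encodes HIF-2 alpha, stood at 239, 291 and 374 CPM across WT, compared with 311, 295 and 259.5 CPM across VEGF/LysM. Its highest value was in WT replicate 3, and the log2 fold change of -0.06 turned to 0.12 without that library and to 0.20 without both libraries with liver transcripts. Arnt, the constitutive partner, stood at 60.8, 73.2 and 67.6 CPM across WT, compared with 78.4, 72.5 and 76.4 CPM across VEGF/LysM, a log2 fold change of 0.17 ± 0.12. Per kb of transcript, the mean level of Epas1 in WT was 54.6 ± 12.4 CPM (SD, n = 3), above Arnt at 24.9 ± 2.30 and Hif1a at 12.5 ± 2.10, and the order was the same in VEGF/LysM (52.3 ± 4.81, 28.1 ± 1.11 and 11.4 ± 1.94).

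The oxygen sensors and Vhl also overlapped between groups. Egln1, the main prolyl hydroxylase of HIF and itself a HIF target, was the steadiest of them, at 79.9 to 92.9 CPM across WT, compared with 81.9 to 89.6 CPM across VEGF/LysM. Its log2 fold change was 0.0059 with an interval of -0.28 to 0.29, so a change of more than 1.5-fold lies outside the interval. Egln3 (chromosome 12, 54178981 to 54203860, minus strand), the sensor most strongly induced by HIF in many tissues, stood at 6.03, 7.42 and 18.7 CPM across WT, compared with 4.05, 8.73 and 6.89 CPM across VEGF/LysM. The 1 high value was that of WT replicate 3, and the log2 fold change of -0.70 became -0.04 without it. Egln2, the nuclear hydroxylase, had -0.26 ± 0.17 (124 and 104 CPM on average), and Vhl had 0.03 ± 0.24, which turned to -0.19 without WT replicate 3, where Vhl was lowest at 25.0 CPM.

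Of the HIF targets outside glycolysis, 9 of 10 were tested, with 5 above 0, 4 below 0 and a median log2 fold change of 0.09. Without WT replicate 3 the split was 7 above and 2 below, with a median of 0.084. Without both libraries with liver transcripts it was 6 above and 3 below, with a median of 0.037. Bnip3 (chromosome 7, 138890836 to 138909519, minus strand), a mitochondrial outer membrane protein that marks mitochondria for mitophagy, stood at 182, 188 and 149 CPM across WT, compared with 204, 201 and 238 CPM across VEGF/LysM. All 3 VEGF/LysM libraries lay above all 3 WT libraries. The log2 fold change was 0.31 ± 0.16 (SE; 95% interval -0.06 to 0.68; adjusted p = 0.999), and 0.14 without both libraries with liver transcripts. Its paralog Bnip3l, a mitophagy receptor needed when red cells mature, stood at 116 to 138 CPM across WT, compared with 136 to 157 CPM across VEGF/LysM (0.16 ± 0.14), and a near-identical copy, Bnip3l-ps, took 5.72% of the counts of both. Ndrg1 (chromosome 15, 66929318 to 66969640, minus strand), a stress-responsive protein also needed in myelinating Schwann cells, stood at 84.7, 81.3 and 74.6 CPM across WT, compared with 68.7, 71.8 and 47.0 CPM across VEGF/LysM. All 3 VEGF/LysM libraries lay below WT, the lowest being replicate 3, with a log2 fold change of -0.36 ± 0.18 (adjusted p = 0.999), or -0.19 without that library.

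Bnip3, Ndrg1 and the glucose transporter gene Slc2a1 were the 3 members whose groups did not overlap. They were 3 of 34, where the background of non-overlapping genes is 5.95% (3.54% with VEGF/LysM higher and 2.41% lower). Which genes were lower depended on the scaling: Ndrg1 and Slc2a1 with TMM, Slc2a1 and Gpi1 with upper-quartile scaling, all 3 with DESeq2 size factors and none with library totals, while Bnip3 was higher with each of the 4.

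The other targets showed no common direction. Ddit4, an inhibitor of mTORC1 that also answers to glucocorticoids, varied widely within WT, at 118, 64.3 and 171 CPM against 101, 72.8 and 102 CPM across VEGF/LysM. Its log2 fold change of -0.36 ± 0.34 turned to 0.0096 without WT replicate 3, and without WT replicate 2 it was -0.65 (adjusted p = 0.656). Car9, the tumour hypoxia marker carbonic anhydrase IX, was near the detection limit, with 9, 12 and 11 counts in WT and 8, 13 and 32 counts in VEGF/LysM. The 1 higher library was VEGF/LysM replicate 3, without which its log2 fold change of 0.64 turned to -0.15. Ankrd37, a small ankyrin repeat protein induced by HIF, did not pass the filter, with 5, 4 and 18 counts in WT and 17, 4 and 2 counts in VEGF/LysM. P4ha1 and P4ha2, prolyl hydroxylases of collagen, had -0.06 ± 0.13 and 0.09 ± 0.19, Kdm3a, a histone H3 demethylase, had 0.11 ± 0.17, and Higd1a, a mitochondrial survival protein, had -0.09 ± 0.17.

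**Figure D2:**
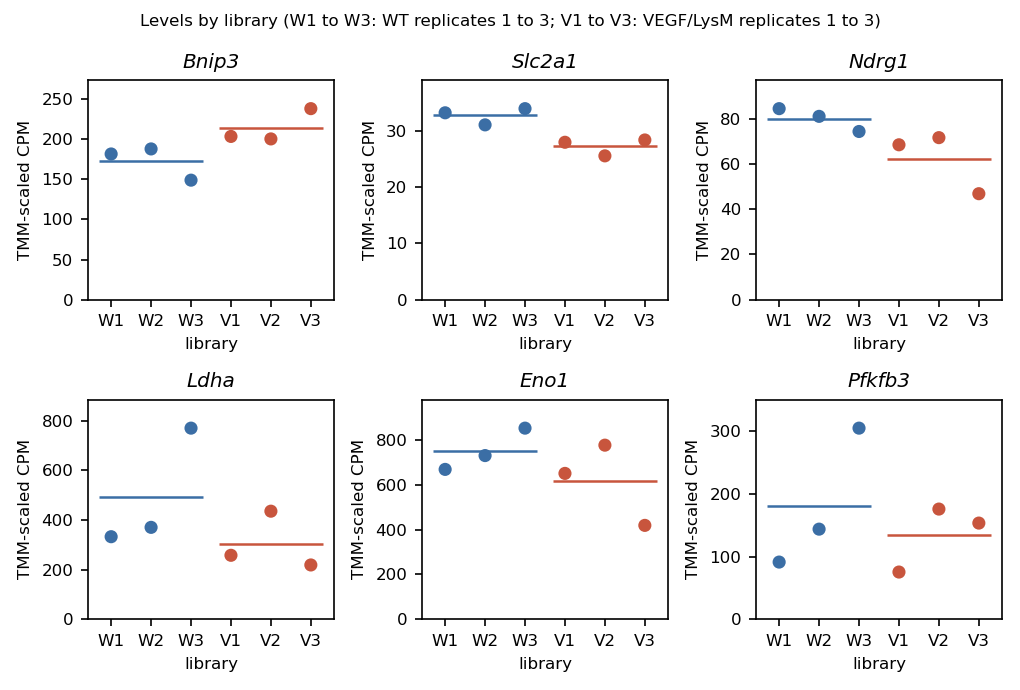
TMM-scaled CPM (vertical axes, from 0) of 6 genes in each library, with WT in blue, VEGF/LysM in red and a line at each group mean. The upper row holds the 3 genes whose groups did not overlap, and in the lower row WT replicate 3 is the highest library for Ldha, Eno1 and Pfkfb3 (770, 855 and 305 CPM).

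Slc2a1 (chromosome 4, 119108711 to 119137983, plus strand) encodes the basal glucose transporter GLUT1. It stood at 33.3, 31.1 and 34.01 CPM across WT, compared with 28.02, 25.6 and 28.4 CPM across VEGF/LysM, a narrow spread in each group with no overlap. The log2 fold change was -0.26 ± 0.14 (95% interval -0.59 to 0.06; adjusted p = 0.999) and ranged from -0.30 to -0.19 over the 16 alternative fits, none of which called it. Slc16a3, the lactate exporter MCT4, was scarce at a mean of 3.38 ± 0.442 CPM for WT (SD, n = 3), compared with 3.30 ± 1.17 for VEGF/LysM. Pdk1, a kinase that shuts pyruvate dehydrogenase and so keeps pyruvate out of the mitochondrion, stood at 64.9, 93.3 and 121 CPM across WT, compared with 84.7, 86.2 and 63.2 CPM across VEGF/LysM. Its extremes were WT replicate 3 and VEGF/LysM replicate 3, and the log2 fold change of -0.25 turned to 0.12 without both.

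The glycolytic enzymes were below 0 in 14 of 15 identifiers, with a median log2 fold change of -0.17. With 1 library left out the count was 11 of 15 without WT replicate 1, 12 without WT replicate 2, 11 without WT replicate 3, 13 without either VEGF/LysM replicate 1 or 2, and 10 without VEGF/LysM replicate 3. The median then ran from -0.34 without VEGF/LysM replicate 2 to -0.071 without VEGF/LysM replicate 3, and was -0.14 without WT replicate 3. Without both libraries with liver transcripts it was -0.0137, with 8 of 15 below 0. With library totals the count was 11 of 15 and the median -0.095, against a median of 0.07 over all genes in that fit. WT replicate 3 was the highest library for 8 of the 15 (28.4% of all genes tested) and VEGF/LysM replicate 3 the lowest for 8 of the 15 (15.9%). The list's median stood 0.24 log2 units above the 6-library mean in the first and 0.37 below it in the second.

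Ldha (chromosome 7, 46841475 to 46855627, plus strand), which turns pyruvate into lactate, had the most negative value of the enzymes. It stood at 332, 370 and 770 CPM across WT, compared with 257, 435 and 218 CPM across VEGF/LysM. The groups overlapped, WT replicate 3 lay at more than every other library, and the log2 fold change of -0.69 ± 0.40 became -0.21 without that library and -0.0137 without both. Pfkfb3 (chromosome 2, 11471433 to 11554077, minus strand), whose product makes the activator of phosphofructokinase and which endothelial cells use in sprouting, stood at 91.2, 144 and 305 CPM across WT, compared with 75.2, 176 and 154 CPM across VEGF/LysM. Its log2 fold change of -0.42 turned to 0.19 without WT replicate 3. Eno1 (chromosome 4, 150236721 to 150248879, plus strand), the general enolase, stood at 670, 732 and 855 CPM across WT, compared with 652, 779 and 419.5 CPM across VEGF/LysM, so here VEGF/LysM replicate 3 was the library apart. Its log2 fold change was -0.29 ± 0.26, or -0.07 without that library, and near-identical copies took 3.07% of the counts.

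Gpi1, the isomerase of the second step, was the enzyme with the smallest p (0.128, adjusted p = 0.999), at 312, 313 and 365 CPM across WT, compared with 261, 314 and 228 CPM across VEGF/LysM. Its log2 fold change stayed below 0 in each of 16 alternative fits (-0.45 to -0.11). Tpi1, which interconverts the triose phosphates, likewise stayed below 0 (-0.24 ± 0.19, or -0.098 without VEGF/LysM replicate 3), and Pgk1, the first ATP-making step, had -0.19 ± 0.23, which turned to 0.0036 without WT replicate 3. Pgam1, phosphoglycerate mutase, was the 1 enzyme above 0, at 0.15 ± 0.19. Pkm, pyruvate kinase of muscle and most other tissues, had -0.02 ± 0.22 with an interval of -0.55 to 0.50. The hexokinases Hk1 and Hk2 had -0.04 ± 0.15 and -0.14 ± 0.27, and the phosphofructokinases Pfkl and Pfkp had -0.14 ± 0.24 and -0.21 ± 0.19. Pfkp overlaps Pitrm1 on the opposite strand, and the kit does not mark strand, so its count may hold reads of that gene.

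Per kb of transcript the enzymes from aldolase onwards included the most abundant ones, in both groups. Aldoa, the general aldolase, led at 839.8 ± 139.7 CPM per kb for WT (SD, n = 3) and 765 ± 155 for VEGF/LysM, and its second gene model had 3 to 17 counts per library. Eno1 followed at 371 ± 46.4 and Pkm at 336 ± 49.8 in WT, a difference within their SDs. Ldha at 278 ± 137, Tpi1 at 240 ± 24.3 and Pgam1 at 231 ± 35.7 did not differ beyond their spread either. Hk1 at 15.3 ± 1.70 and Hk2 at 16.98 ± 4.28, the entry step, were also alike within their spread, and both lay above Aldoc, the aldolase of brain, at 8.27 ± 0.839. At the phosphofructokinase step Pfkl at 37.7 ± 2.67 stood above Pfkp at 21.3 ± 3.01 in WT, and in VEGF/LysM the means were 34.1 ± 10.2 and 18.5 ± 3.81.

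**Figure D3:**
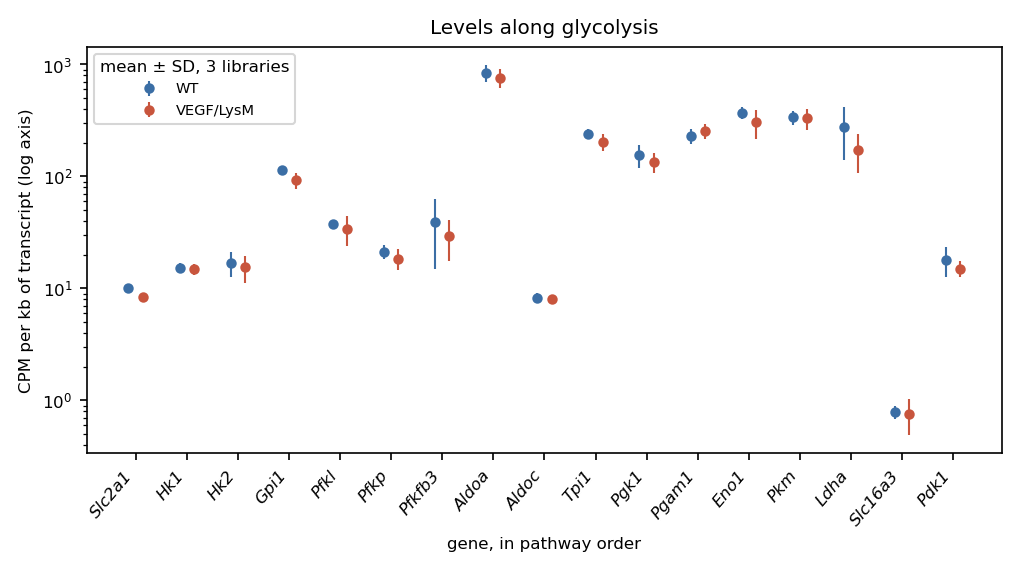
Mean level ± SD over 3 libraries in CPM per kb of transcript (log axis) for 17 genes ordered along glycolysis, with WT in blue and VEGF/LysM in red. The bars of the 2 groups overlap for every gene shown except Slc2a1, and Ldha and Pfkfb3 have the widest WT bars.

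Markers of other cell types also differed between libraries. Slc2a2, the liver glucose transporter, was counted 3361 times in WT replicate 3. VEGF/LysM replicate 3 followed with 11 counts, and the other 4 libraries held at most 5 each. B and T cell markers (11 genes) summed to 399, 190 and 1314 CPM of the library total in WT replicates 1 to 3 and to 121.5, 175 and 118.5 CPM in the VEGF/LysM libraries, so all WT libraries lay above. In VEGF/LysM replicate 3, 10 chromaffin cell markers summed to 9942 CPM, against 3081 to 7489 CPM in the other libraries, and 8 immediate early genes to 1614 CPM, against 381 to 1077. Cortex markers summed to 24420 CPM in WT replicate 3 and to 47490 to 58080 CPM in the others, while 10 endothelial markers ranged from 589 to 949 CPM in WT and from 837 to 964 CPM across VEGF/LysM. Macrophage markers (10 genes) ranged from 542 to 793 CPM in WT and from 485 to 659 CPM across VEGF/LysM. That sum includes Lyz2, the LysM gene, at 186 to 275 TMM-scaled CPM in WT and 111 to 134 across VEGF/LysM (adjusted p = 0.999 in edgeR). The groups did not overlap for Lyz2 (2.41% of all genes were lower without overlap) and overlapped for each other macrophage marker. Adipocyte markers ranged from 2986 to 5220 CPM in WT and from 2540 to 5582 CPM across VEGF/LysM. Erythrocyte markers ranged from 219 to 635 and from 91.2 to 178, again with all WT libraries above. Skeletal muscle markers stayed at or below 6.05 CPM in each library. The part of these differences in the values of the hypoxia and glycolysis genes was not tested.

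**Figure D4:**
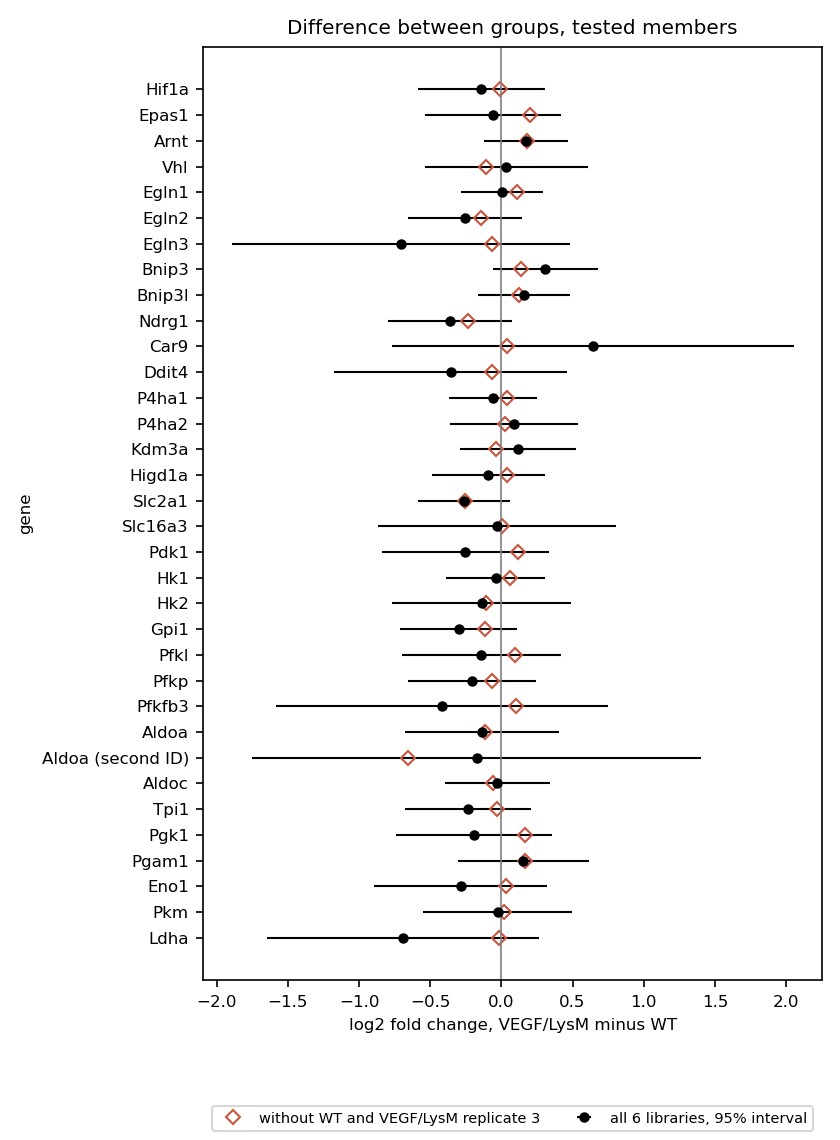
Log2 fold change, VEGF/LysM minus WT (horizontal axis), of the 34 tested identifiers with 95% intervals from all 6 libraries (black), and its value without WT replicate 3 and VEGF/LysM replicate 3 (open red diamonds). All 34 intervals include 0, and Ldha, Egln3 and Pfkfb3 lie near 0 without the 2 libraries.

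Further genes of the same pathways gave no call in either direction. Of 36 other oxygen-sensing genes and HIF targets, 35 were tested, 17 were above 0 and 18 below, and the median was -0.0345. Without WT replicate 3 the split was 19 above and 16 below, with a median of 0.014. Without both libraries with liver transcripts it was 22 above and 13 below, with a median of 0.0435. Over all genes that last split was 8107 above and 8056 below. Arnt2, a paralog of Arnt in neural tissue, had the smallest p of that list, at 57.2, 63.7 and 40.3 CPM across WT, compared with 75.6, 63.4 and 85.6 CPM across VEGF/LysM (log2 fold change 0.48 ± 0.21, adjusted p = 0.999, or 0.30 without WT replicate 3). Plod2, a lysyl hydroxylase of collagen, stood at 186.5, 181 and 108 CPM across WT, compared with 238, 234 and 195 CPM across VEGF/LysM, without overlap (0.49 ± 0.23, adjusted p = 0.999, or 0.27 without WT replicate 3). In this list 2 of the 35 tested genes were higher in VEGF/LysM without overlap (3.54% of all genes tested) and 0 were lower (2.41%). Epo, the HIF target that drives red cell formation, had 0 counts in each library, where 3 counts correspond to 0.161 to 0.182 CPM of the total. Vegfa, the HIF target named in the group label, stood at 295, 241 and 332 CPM across WT, compared with 180, 193 and 501 CPM across VEGF/LysM. Its highest value was thus in VEGF/LysM replicate 3, the library with the lowest Ldha and Eno1. Of the 9 tested member HIF targets outside glycolysis, 3 were highest in that library (18.6% of all genes tested), namely Bnip3, Kdm3a and Car9. Another 2, Ndrg1 and Higd1a, were lowest there (15.9%). The log2 fold change of Vegfa, 0.0095, turned to -0.63 without that library.

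Of 23 other glycolysis genes, 19 were tested, 13 below 0, with a median of -0.09. Of these, 0 passed the adjusted threshold, and 1 was lower at an unadjusted p under 0.05 (1.94% of all genes tested). Without both libraries with liver transcripts the split was 8 above and 11 below, with a median of -0.041. Slc16a7, a pyruvate transporter, stood at 59.6 CPM in WT replicate 3 and at 7.73 to 12.0 CPM in the other 5 (log2 fold change -1.46, or -0.08 without that library). Gapdh had only 5.67 to 31.4 CPM, and 42 near-identical copies in the annotation took 93.4% of the counts of gene and copies together. With copies added, it came to 257 to 299 CPM of the total in WT and 223 to 275 CPM across VEGF/LysM. Of 17 genes of pyruvate use and gluconeogenesis, 16 were tested, 12 below 0, with a median of -0.23, and without WT replicate 3 that median was 0.05. Without both libraries with liver transcripts the direction turned, with 13 above 0, 4 below and a median of 0.17. With all 6 libraries 0 again passed the adjusted threshold, and 2, Fbp1 and G6pc, were lower at an unadjusted p under 0.05 (1.94% of all genes tested). Fbp1 and G6pc, enzymes of glucose release, stood at 622 and 173 CPM in WT replicate 3 and at 0.352 to 1.77 CPM in the other 5 libraries.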

How the data were processed

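Gene counts of 3 WT and 3 VEGF/LysM whole adrenal glands were analysed. The authors' deposited table gives raw counts (whole numbers) for each gene in each library. Per the labels' protocols, libraries followed Smartseq II, a protocol that does not mark strand. The submitters' processing notes name kallisto, DESeq2 1.36.0 and mm10 without a role. Symbols were found for 54409 of 54532 identifiers.

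filterByExpr (minimum count 10, minimum total 15) kept 16300 genes. edgeR 4.0.16 under R 4.3.3 scaled by TMM (factors 1.02 to 1.05, and 0.84 in WT replicate 3) and ran the quasi-likelihood test on group alone, with Benjamini-Hochberg adjustment across the genes kept and 0.05 as threshold. SEs were derived from that fit, as the absolute log2 fold change divided by the square root of the test's F statistic. The 95% intervals were built from these SEs with the t distribution. The fit was also run on simulated counts, and how often it called a change of a given size is not reported here. Levels per kb use the principal transcript of the GENCODE M21 annotation (GRCm38). Near-identical copies are other genes' transcripts that minimap2 2.31 aligned at 95% identity or more over at least 300 bases. Floors cover counting error only. Alternatives were DESeq2 size factors, upper-quartile scaling, library totals, each library left out, a replicate block, no filter, a filter of 1 CPM in at least 3 libraries, both libraries with liver transcripts left out, removal of haemoglobin and mitochondrial genes, DESeq2 1.42.0, limma-voom (limma 3.58.1) with sample weights, and a threshold of 0.1.

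The members, role groups, pathway lists and marker lists were chosen with earlier results of these data known. All members are named, with Vegfa, Gapdh and the 2 genes of smallest p from each other pathway list; 1 gene that this rule names is not reported here. Slc2a2, named to describe a library, Epo, named for its 0 counts, and Lyz2, named within the macrophage markers, were chosen after their values were seen.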

Additional observations from a re-analysis of the deposited data

How the results depend on the processing

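Counts of called members stayed at 0 and of called genes at 0 in every alternative, except 1 gene called without WT replicate 3. Genes at an unadjusted p under 0.05 numbered 459, against 1098 without a filter and 143 to 1279 with 1 library left out. The median over all members ran from -0.21 to -0.033 with 1 library left out and was 0.012 without both libraries with liver transcripts. That setting also gave 0.18 for the HIF subunits (-0.20 to 0.12 with 1 library left out) and 0.0036 for transport and Pdk1 (-0.30 to -0.025), which had -0.15 with library totals and -0.089 with limma-voom. HIF targets outside glycolysis had 0.16 with library totals, 0.013 with no filter, 0.012 with the stricter filter, and -0.044 to 0.084 with 1 library left out. The oxygen-sensing regulators ran from -0.22 to -0.090 and the glycolytic enzymes from -0.34 to -0.071.

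Of 34 tested identifiers, 13 kept their direction in every alternative fit that tested them (Hif1a, Arnt, Egln2, Egln3, Bnip3, Bnip3l, Ndrg1, Slc2a1, Gpi1, Pfkp, Tpi1, Pgam1 and Ldha). The same direction does not mean the same size. Without both libraries with liver transcripts, Hif1a (-0.0064), Ldha (-0.0137), Tpi1 (-0.033), Egln3 (-0.065) and Pfkp (-0.065) lay near 0, while Slc2a1 stayed at -0.26. Without both libraries the direction turned for Epas1 (0.20), Vhl (-0.11), P4ha1 (0.037), Kdm3a (-0.038), Higd1a (0.039), Slc16a3 (0.0036), Pdk1 (0.12), Hk1 (0.062), Pfkl (0.096), Pfkfb3 (0.10), Pgk1 (0.16), Eno1 (0.036), Pkm (0.0204), Vegfa (-0.52) and G6pc (0.17). With limma-voom it turned for Epas1 (0.0705), Vhl (-0.088), Ddit4 (0.093), P4ha1 (0.012), Kdm3a (-0.014), Higd1a (0.021), Hk1 (0.065), Aldoc (0.0052), Pgk1 (0.029), Vegfa (-0.25) and Gapdh (0.41). With library totals, which moved the median of all genes from 0.0013 to 0.0693, values of no more than that shift turned for Epas1 (0.035), P4ha1 (0.023), Slc16a3 (0.05003), Hk1 (0.037), Aldoc (0.039), Pkm (0.028) and Gapdh (0.016), and with upper-quartile scaling for Slc16a3 (2.4e-05). With DESeq2 size factors it turned for Egln1 (-0.0033) and Vegfa (-0.0022), and in the DESeq2 test for Egln1 (-0.00295) and Vegfa (-0.0022).

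With 1 library left out the values that turned ran, for Epas1, from -0.20 to 0.12, Vhl -0.19 to 0.17, Egln1 -0.046 to 0.055, Car9 -0.15 to 0.96, Ddit4 -0.65 to 0.0096, P4ha1 -0.11 to 0.028, P4ha2 -0.019 to 0.22, Kdm3a -0.025 to 0.20, Higd1a -0.25 to 0.0057, Slc16a3 -0.28 to 0.21 and Hk1 -0.15 to 0.023. For Hk2 they ran from -0.31 to 0.055, Pfkl -0.34 to 0.084, Pfkfb3 -0.73 to 0.19, Aldoa -0.30 to 0.012, its second model -0.57 to 0.21, Aldoc -0.086 to 0.058, Pgk1 -0.35 to 0.0036 and Pkm -0.18 to 0.13. For Vegfa they ran from -0.63 to 0.24, Gapdh -0.79 to 0.27, Fbp1 -8.77 to 0.48 and G6pc -6.69 to 0.94. The cause of these turns was not tested.

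Replicate numbers are shared by both groups, and whether they pair the samples is not known. Deviations of same-numbered samples from their group means correlated at 0.064, -0.014 and 0.25 over genes. WT replicate 3 correlated best with VEGF/LysM replicate 3, WT replicate 1 with VEGF/LysM replicate 2 (0.128) and WT replicate 2 with VEGF/LysM replicate 1 (0.319). Deviations from a mean of 3 samples depend on each other, so these values cannot settle whether samples are paired. With the replicate block 0 genes and 0 members were called, 270 genes had an unadjusted p under 0.05 against 459, and Vegfa (-0.15) and Gapdh (0.0085) turned. Depth limits the scarce members: the 95% interval of Car9 ran from -0.77 to 2.05, and Ankrd37 was not tested.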
